A study of Mus musculus with 6 samples.

Results

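Heat shock proteins and their co-chaperones were followed in F4/80+ cells from tumours of mice with and without ST2, the receptor of the cytokine IL-33. The genes were chosen by symbol alone. They were the HSP70 genes (Hspa), those named as small heat shock genes (Hspb), the HSP90 genes (Hsp90) and the chaperonin genes Hspd1 and Hspe1. The exchange factor gene Hsph1 and the J-domain genes of classes A, B and C (Dnaja, Dnajb, Dnajc) were also taken. Of 19938 genes with a probe set of their own, 70 met this rule: 12 Hspa, 8 Hspb, 2 Hsp90, 4 Dnaja, 13 Dnajb and 28 Dnajc genes, and the 3 genes Hspd1, Hspe1 and Hsph1. Hsp90ab1 was not analysed here, and Hspa1b was read only by a probe set that it shares with Hspa1a.

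Total RNA of F4/80+ cells, named for a surface protein of mouse macrophages, was hybridised to 6 Affymetrix Gene 1.0 ST arrays. Of these, 3 came from tumours grown in wild type hosts and 3 from tumours grown in St2-/- hosts. The labels give St2-/- as the genotype of the host and name no strain, age, sex, tumour or treatment. The targeted gene was not analysed here, so the genotypes rest on the labels. Nothing states whether the 3 samples of a group were separate animals, so the tests see only the variation among these arrays, part of which could be technical.

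Molecular chaperones bind unfolded or partly folded proteins and keep them from aggregating. HSP70 proteins work in cycles of ATP use: a J-domain protein brings the client and starts ATP hydrolysis, and an exchange factor such as Hsph1 resets the cycle. HSP90 matures kinases and hormone receptors, the barrel of Hspd1 with its lid Hspe1 folds proteins inside mitochondria, and small heat shock proteins hold clients without ATP. Some of these genes are switched on by heat shock factor when proteins unfold in the cytosol, and others by the unfolded protein response of the endoplasmic reticulum (ER).

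Values are the deposited log2 expression values, and differences are St2-/- minus wild type, with the standard error (SE) of the limma fit. A gene is called when its limma p, adjusted by Benjamini-Hochberg over all genes, is under 0.05. Over all genes, arrays of a group had Pearson correlations of 0.996 to 0.998 with each other, and arrays of different groups 0.986 to 0.988. Macrophage markers averaged 11.29 to 11.33 in wild type arrays and 11.18 to 11.23 in St2-/- arrays, with 3 of 14 called higher and 5 lower. Among markers of other cells, 8 of 14 fibroblast and pericyte genes were lower and 1 higher (list mean 7.37 to 7.38 in wild type, 6.46 to 6.53 in St2-/-). Of 14 endothelial genes 10 were lower and 3 higher (6.46 to 6.55 against 5.89 to 5.95), and of 13 neutrophil genes 5 were lower and 1 higher (5.37 to 5.41 against 4.89 to 4.94). Of 11 T cell genes 6 were higher and 1 lower (4.93 to 5.02 against 5.36 to 5.42), and of 11 NK cell genes 5 were higher and 0 lower (3.80 to 3.87 against 4.36 to 4.44). Dendritic cell genes had 3 higher and 3 lower of 11 (5.79 to 5.94 against 6.34 to 6.42), and B cell genes 3 higher and 1 lower of 8. Muscle, epithelial and mast cell genes had 1 lower each, of 15, 10 and 9. The scale has no 0, and the part of these cells in the chaperone values was not tested. In sorted bulk RNA, fewer cells of a type and less RNA per cell cannot be told apart.

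Most chaperone genes, like most genes, were not called between the genotypes. Of the 70 genes, 10 were called (14.3%), against 20.8% of all genes: 6 were higher in St2-/- (8.57%, against 10.7% of all genes) and 4 were lower (5.71%, against 10.0%). The lower share of chaperone genes did not hold in every setting, as described below. The 6 higher genes were Hsph1, Hspb1, Hspe1, Hspa14, Dnajc15 and Dnajc2, and the 4 lower genes were Dnajb9, Dnajb4, Dnajc22 and Dnajc13. Among the brightest 60% of genes, 10 of 60 chaperone genes were called (16.7%), against 30.3% of all genes in that range. Of the 70 genes, 0 were called with a 2-fold difference or more, against 1.53% of all genes. The median difference was 0.01 over the 70 genes and -0.02 over all genes, and the median size of the difference was 0.10 and 0.12. Wild type and St2-/- arrays did not overlap for 29 chaperone genes (41.4%), against 36.4% of all genes.

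**Figure D1:**
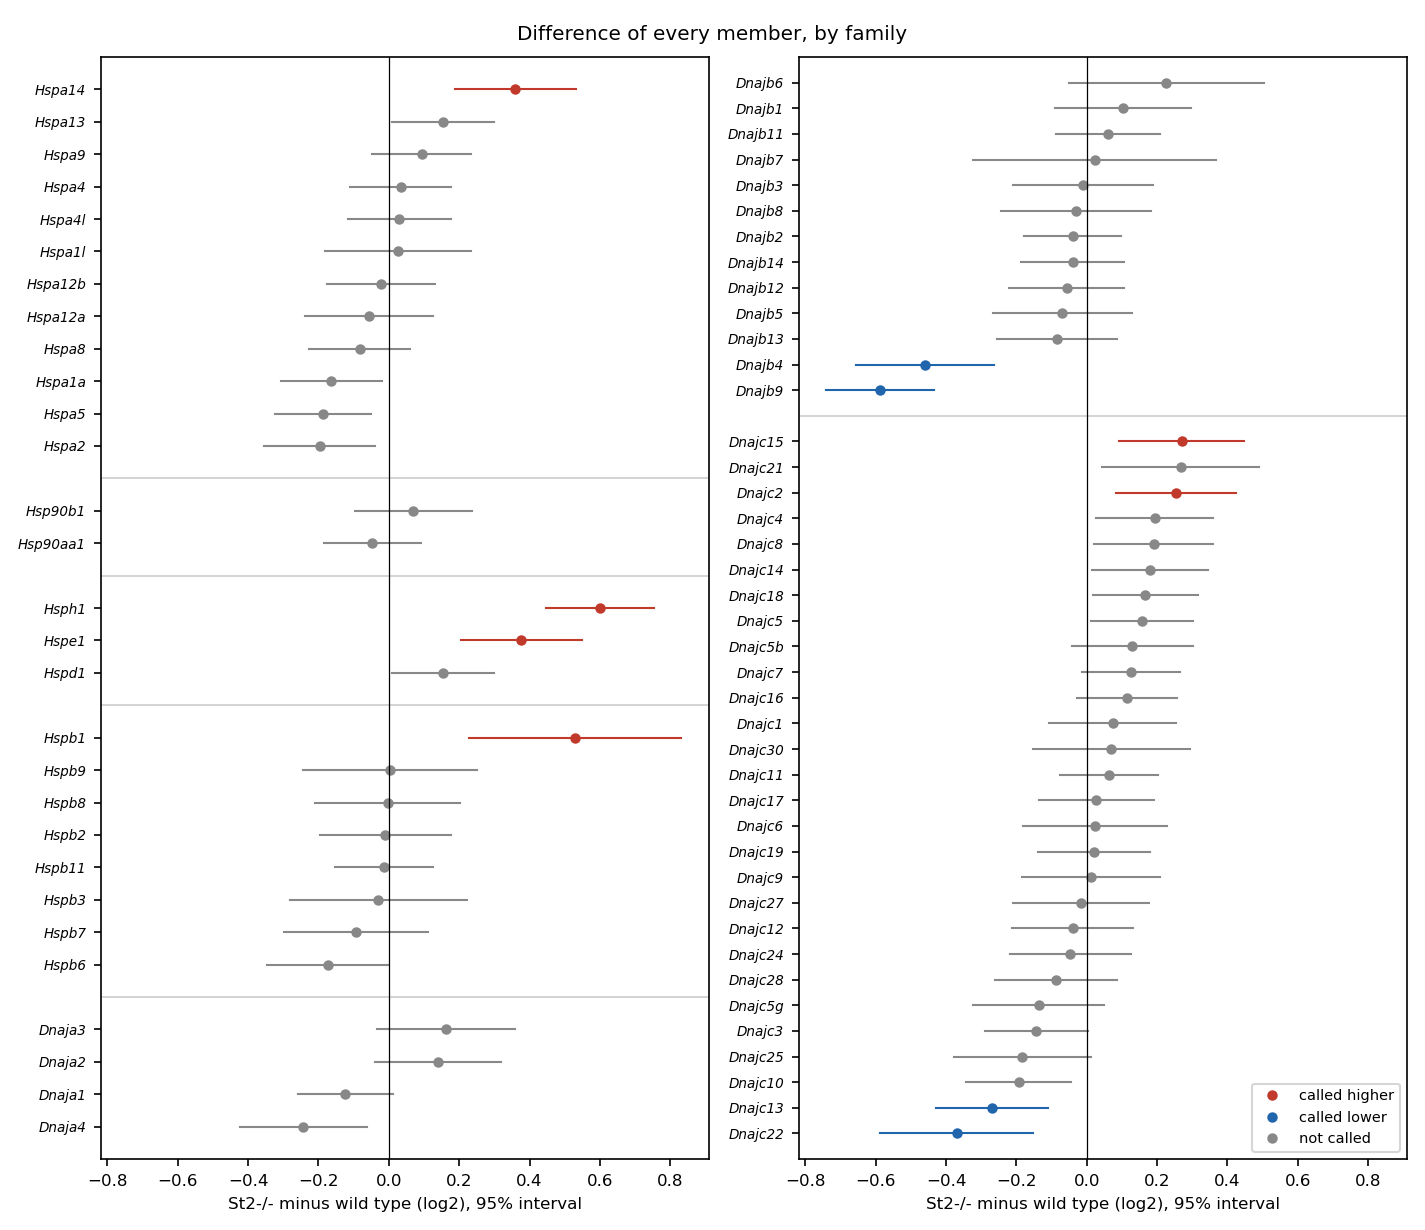
Difference between St2-/- and wild type for each of the 70 genes, in log2 units on the horizontal axis, with the 95% interval of the limma fit as a line. Genes are grouped by family and sorted by difference. Red points are the 6 genes called higher, blue points the 4 called lower, and the 60 grey points lie between -0.24 and 0.27.

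The exchange factor gene Hsph1 had the greatest rise of the 70 genes. Its product, a relative of HSP70, makes HSP70 release ADP and itself holds unfolded clients. Hsph1 (probe set 10535904) measured 8.11, 8.26 and 8.12 in wild type and 8.73, 8.75 and 8.81 in St2-/-. All St2-/- arrays lay above all wild type arrays, and the gap between the groups was wider than the spread within either. The means were 8.16 ± 0.08 and 8.76 ± 0.04 (SD, n = 3), a difference of 0.60 ± 0.07 (SE), or 1.52-fold, with a limma adjusted p of 1.94e-04. The related exchange factor genes Hspa4 and Hspa4l were not called, with differences of 0.03 (95% interval -0.11 to 0.18) and 0.03 (-0.12 to 0.18).

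The 250 bases before an annotated start of Hsph1 are shown because this gene rose most. Capitals mark a heat shock element of 2 units (TTCNNGAA), 33 to 26 bases before that start. The stretch is chr5:149636337-149636586 on the minus strand of GRCm38.p6, from RefSeq, as are all stretches below.
Hsph1: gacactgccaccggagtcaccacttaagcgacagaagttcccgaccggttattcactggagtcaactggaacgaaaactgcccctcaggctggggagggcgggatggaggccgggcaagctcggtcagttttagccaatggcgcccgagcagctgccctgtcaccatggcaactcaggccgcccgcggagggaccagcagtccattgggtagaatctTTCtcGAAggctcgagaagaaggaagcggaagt

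Of the mitochondrial chaperonin pair, the lid was called and the barrel was not. Hspe1, the lid (probe set 10455588), measured 9.66, 9.80 and 9.76 in wild type and 10.02, 10.09 and 10.24 in St2-/-. The groups did not overlap, with means of 9.74 ± 0.07 and 10.12 ± 0.11 (SD, n = 3) and a difference of 0.38 ± 0.08 (SE; limma adjusted p = 0.00702). A second Hspe1 probe set gave 0.39. Hspd1, the barrel (probe set 10375240), measured 9.63, 9.56 and 9.62 in wild type and 9.80, 9.68 and 9.79 in St2-/-. Its groups did not overlap either, but the difference of 0.15 (95% interval 0.01 to 0.30) had an adjusted p of 0.132. A second Hspd1 probe set gave 0.28, and the mean of both Hspd1 probe sets was called (0.0409). Both genes have near-identical processed copies in the genome that the probes may also read, and whether the 2 genes differed from each other was not tested.

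Hspe1 and Hspd1 lie head to head on chromosome 1, so that 1 stretch stands before the start of both. It is shown with that of Dnajb6 because these genes carry the 3-unit heat shock element, in which GAA and TTC alternate with 2 free bases between them (GAANNTTCNNGAA, or TTCNNGAANNTTC on the other strand). In the 250 bases before each annotated start, this element was found for 3 of the 57 chaperone genes with a promoter entry (5.26%) and in 0.466% of all 32851 windows. A chaperone gene was counted if any of its starts had a match, while each window was counted singly. The shares thus differ in unit, and a gene with several starts had more chances of a match. Capitals mark its units. The Hspe1 stretch is chr1:55088053-55088082 on the plus strand and holds 2 overlapping matches, which stand 89 to 72 bases before the start of Hspe1 and 144 to 127 bases before that of Hspd1. The Dnajb6 stretch is chr5:29735844-29735873 on the plus strand.
Hspe1: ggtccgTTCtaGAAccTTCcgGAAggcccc
Dnajb6: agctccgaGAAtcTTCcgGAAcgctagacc

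The shorter 2-unit form (GAANNTTC or TTCNNGAA, which every 3-unit match contains) was found for 13 of the 57 genes (22.8%) and in 12.8% of all windows. These shares are again per gene and per window. Among called genes it stood before Hspb1 and Dnajb4 as well as Hsph1 and Hspe1. Stretches of Hspb1, Dnajb4 and Hspa1a are shown because these genes share the form while Hspb1 was higher, Dnajb4 lower and Hspa1a not called. They are chr5:135887801-135887830 on the plus strand, and chr3:152193846-152193875 and chr17:34972242-34972271 on the minus strand. A match describes letters only.
Hspb1: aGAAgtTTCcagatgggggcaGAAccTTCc
Dnajb4: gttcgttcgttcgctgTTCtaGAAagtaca
Hspa1a: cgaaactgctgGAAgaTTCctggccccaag

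The other chaperone genes grouped here as mitochondrial had small positive differences. Dnajc15, a J-domain protein of the inner membrane, measured 7.65, 7.65 and 7.43 in wild type and 7.79, 7.83 and 7.92 in St2-/-. Every St2-/- array lay above every wild type array, and it was higher by 0.27 ± 0.08 (SE; limma adjusted p = 0.0389). Leaving out wild type replicate 3 (0.101) or any of the St2-/- arrays (0.0629 to 0.136) ended that call. Cyclic loess (0.0931), a fit over all rows of the table (0.0878) and a replicate block (0.0763) ended it too. Hspa9, the mitochondrial HSP70, differed by 0.09 (95% interval -0.05 to 0.23), and Dnaja3, its J-domain partner, by 0.16 (-0.03 to 0.36). Dnajc11, Dnajc19 and Dnajc30 differed by 0.06, 0.02 and 0.07. The 8 genes grouped here as mitochondrial were chosen after their values were seen, and the group may not be complete. It had 2 higher, 0 lower and 6 not called, where 10.7% of all genes were higher and 10.0% lower. Its median was 0.12, and 0.06 after cyclic loess.

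In a wider list of mitochondrial import partners, exchange factors and quality-control proteases, 8 of 15 genes were higher and 0 lower, with a median of 0.23. The count was 5 after cyclic loess, 4 when St2-/- replicate 1 was left out and 5 when wild type replicate 1, or else St2-/- replicate 3, was. Hscb, the J-domain protein that passes iron-sulphur clusters on, measured 6.41, 6.41 and 6.39 in wild type and 6.86, 6.86 and 7.0 in St2-/-. The groups were far apart, with a difference of 0.50 ± 0.07 (SE; limma adjusted p = 4.92e-04). Tomm70a, the import receptor that docks HSP70 and HSP90, rose by 0.45 (0.00833), and Trap1, the mitochondrial HSP90, by 0.30 (0.0089). The remaining 5 called genes, Clpx, Htra2, Lonp1, Timm44 and Spg7, rose by 0.23 to 0.28. Beside these values, 11 of 20 replication and mitosis genes were higher and 1 lower, with a list mean of 8.46 to 8.51 in wild type and 8.73 to 8.75 in St2-/- arrays, and the part of dividing cells was not tested. Bub1 and Bub1b, genes of the mitotic checkpoint, rose by 0.62 and 0.57, and the replication helicase gene Mcm3 by 0.52. The count of 11 was 6 after cyclic loess, 7 over all rows of the table and 16 with arrays centred on their medians. It was 6 when St2-/- replicate 3 was left out and 7 when wild type replicate 1, or else St2-/- replicate 1, was, and 0 were lower when any 1 array was left out.

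**Figure D2:**
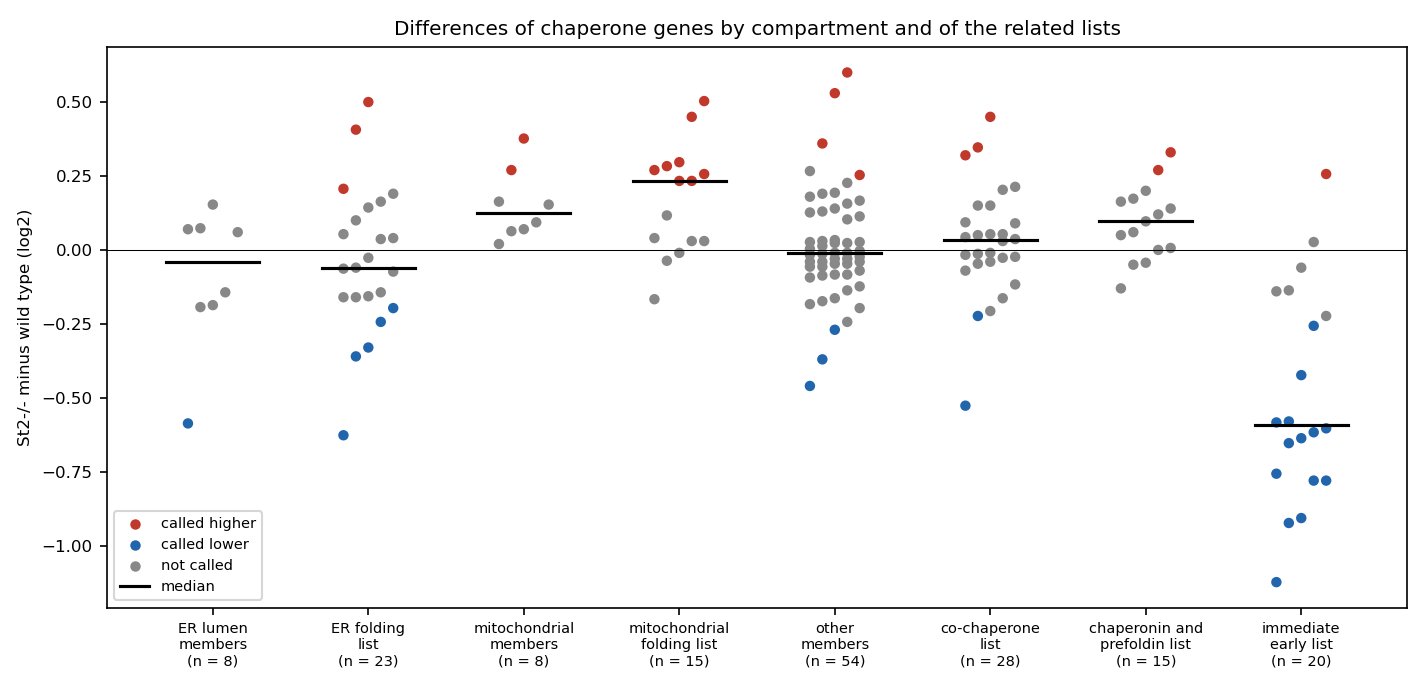
Difference between St2-/- and wild type in log2 units (vertical axis) for the 70 chaperone genes by compartment and for related gene lists, 1 point per gene, with the median of each set as a black line. Red points are called higher and blue points lower. The mitochondrial folding list has 8 of 15 points in red, and the immediate early list 14 of 20 in blue.

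Both genes of the ribosome-associated chaperone complex were higher. Hspa14 is an atypical HSP70 that sits at the ribosome with the J-domain protein Dnajc2, where they meet nascent chains. Hspa14 (probe set 10479775) measured 7.55, 7.67 and 7.46 in wild type and 7.96, 7.83 and 7.97 in St2-/-. Every St2-/- array was above every wild type array, with means of 7.56 ± 0.11 and 7.92 ± 0.08 (SD, n = 3) and a difference of 0.36 ± 0.08 (SE; limma adjusted p = 0.00851). Dnajc2 measured 7.50, 7.56 and 7.33 in wild type and 7.74, 7.66 and 7.75 in St2-/-. Its groups did not overlap but lay closer, and the difference of 0.25 ± 0.08 (SE) had a limma adjusted p of 0.0418. Leaving out wild type replicate 1 (0.0718) or 3 (0.11), or any of the St2-/- arrays (0.0652 to 0.128), ended that call. Cyclic loess (0.091), a fit over all rows of the table (0.0882) and a replicate block (0.0749) ended it too.

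The classical cytosolic HSP70 and HSP90 genes were not called. Hspa1a, the stress-inducible HSP70 (probe set 10450369), measured 11.21, 11.24 and 11.23 in wild type and 11.02, 11.03 and 11.14 in St2-/-. The groups did not overlap, but the difference of -0.16 (95% interval -0.31 to -0.02) had a limma adjusted p of 0.104. The probe set shared by Hspa1a and its near-identical neighbour Hspa1b measured 11.31, 11.35 and 11.29 in wild type and 11.35, 11.35 and 11.34 in St2-/-, a difference of 0.03. The probe sets at this locus thus differed in sign.

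Hspa8, the constitutive HSP70, differed by -0.08 (95% interval -0.23 to 0.06) and Hsp90aa1, the inducible cytosolic HSP90, by -0.05 (-0.18 to 0.09). Hspa2, best known from testis, differed by -0.20 (adjusted p = 0.0783), and Hspa1l, Hspa12a and Hspa12b by 0.03, -0.06 and -0.02. Dnajb1, the heat-inducible J-domain partner of HSP70, measured 8.48, 8.78 and 8.69 in wild type and 8.81, 8.67 and 8.78 in St2-/-. These arrays overlapped, with a difference of 0.10 (-0.09 to 0.30). The class A partners Dnaja1, Dnaja2 and Dnaja4 differed by -0.12, 0.14 and -0.24, and Dnaja4 had the smallest adjusted p of them (0.0614).

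Immediate early genes, which tissue dissociation can induce as it does some heat shock genes, were mostly lower. Of 20 such genes 14 were lower and 1, Socs3, was higher, with a median of -0.59 and a list mean of 10.12 to 10.17 in wild type and 9.63 to 9.67 in St2-/- arrays. Fosb, an AP-1 subunit, fell by 1.12 on the log2 scale, the response gene Ier2 by 0.91 and the transcription factor gene Klf4 by 0.92. In the same arrays the heat-inducible Hspa1a, Dnajb1, Hsph1 and Hspb1 differed by -0.16, 0.10, 0.60 and 0.53. The inducible Hsp90aa1 and the stress-induced Bag3 differed by -0.05 and -0.12, and Dnajb4, which has the shorter heat shock element, by -0.46. Hsph1 and Hspb1 were called higher and Dnajb4 lower, while Hspa1a, Dnajb1, Hsp90aa1 and Bag3 were not called. The genes with the 3-unit element, Hspe1, Hspd1 and Dnajb6, differed by 0.38, 0.15 and 0.23, and only Hspe1 was called. The part of handling in any of these values was not tested.

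Of 5 genes for heat shock factors and their partners, 1 was higher and 0 were lower, with a median of -0.18. Hsf2, a factor known from development, measured 6.14, 6.31 and 6.34 in wild type and 6.73, 6.58 and 6.66 in St2-/-. No arrays of the groups overlapped, and it rose by 0.39 ± 0.08 (SE; limma adjusted p = 0.00535). Hsf1 was not analysed here.

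HSP70 and HSP90 co-chaperones outside these families were mostly not called: 3 of 28 were higher and 2 lower, with a median of 0.03, which was -0.04 after cyclic loess. Fkbp5, an HSP90 co-chaperone induced by glucocorticoids, measured 8.84, 8.83 and 8.67 in wild type and 8.26, 8.34 and 8.16 in St2-/-. All St2-/- arrays were lower, and it fell by 0.53 on the log2 scale (SE 0.08; limma adjusted p = 9.54e-04). Its relative Fkbp4 fell by 0.22 (0.035), a call lost with each array centred on its own median (0.176) and without any 1 array (0.0544 to 0.138). The Fkbp4 call was also lost over all rows (0.0617) and with a replicate block (0.0656). Ahsa1, which speeds ATP use by HSP90, rose by 0.35 (0.00509), and Tomm34, a cytosolic adaptor of both chaperones, by 0.32 (0.00831). The remaining called gene was Tomm70a. Stip1, which passes clients from HSP70 to HSP90, and Bag3, a stress-induced exchange factor, differed by -0.07 and -0.12 and were not called.

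Of 15 genes for the cytosolic chaperonin and prefoldin, 2 were higher and 0 lower, with a median of 0.10. The median was 0.02 after cyclic loess, with 1 higher, and 0.19 with arrays centred on their medians, with 6 higher. The 2 called genes encode prefoldin subunits, Pfdn5 (0.33; limma adjusted p = 0.0149) and Pfdn4 (0.27; 0.04). Without St2-/- replicate 1 neither was called (0.0601 and 0.122). Pfdn5 was not called after cyclic loess either (0.0532). Pfdn4 also lost its call when wild type replicate 1 (0.123), wild type replicate 2 (0.0582) or St2-/- replicate 3 (0.136) was left out. Over all rows (0.0899) and with a replicate block (0.066) Pfdn4 was not called either. The 9 chaperonin subunit genes, from Tcp1 (0.20) down to Cct6b (-0.13), were not called in the main setting.

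Among those of the 70 genes with products in the ER lumen, Dnajb9 was the 1 called. Dnajb9 is a J-domain cofactor of Hspa5, the HSP70 of the ER, and is induced by the unfolded protein response. Dnajb9 (probe set 10400137) measured 10.12, 10.14 and 10.25 in wild type and 9.52, 9.58 and 9.65 in St2-/-. All St2-/- arrays lay below all wild type arrays, by more than the spread within either group. The means were 10.17 ± 0.07 and 9.58 ± 0.07 (SD, n = 3), a difference of -0.59 ± 0.07 (SE), with a limma adjusted p of 2.31e-04. It had the greatest fall of the 70 genes.

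Hspa5 measured 12.38, 12.46 and 12.43 in wild type and 12.25, 12.21 and 12.25 in St2-/-. The groups did not overlap, and the difference of -0.19 (95% interval -0.32 to -0.05) had a limma adjusted p of 0.0573. It was called after cyclic loess (0.00959), with an intensity trend in the variance prior (5.78e-04) and with the dimmest 40% of genes left out (0.0237), and it had 0.328 with each array centred on its own median. Dnajc10, a J-domain reductase, differed by -0.19 (0.0703), and Dnajc3, which also restrains an ER stress kinase, by -0.14. The other lumenal genes had positive differences: Hsp90b1, the ER HSP90, of 0.07 (-0.10 to 0.24), Dnajb11 of 0.06, Dnajc1 of 0.07 and Hspa13 of 0.15. The 8 lumenal genes, grouped after their values were seen, thus had 0 higher and 1 lower, where 10.7% of all genes were higher and 10.0% lower. Their median of -0.04 was 0.05 with arrays centred on their medians and -0.13 after cyclic loess.

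The ER stress response element (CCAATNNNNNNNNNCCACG, or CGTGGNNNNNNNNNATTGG on the other strand) was found before 3 of the 57 genes (5.26%), Hspa5, Dnajc3 and Hsp90b1, and in 0.113% of all windows. The first share is per gene and the second per window. A stretch of each is shown, with the element's fixed letters in capitals, because these genes share it while their differences were -0.19, -0.14 and 0.07. The stretches are chr2:34772020-34772049 and chr14:118937822-118937851 on the plus strand and chr10:86705527-86705556 on the minus strand. Hsp90b1 had 1 further match.
Hspa5: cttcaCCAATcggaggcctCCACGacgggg
Dnajc3: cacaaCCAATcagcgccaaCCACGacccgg
Hsp90b1: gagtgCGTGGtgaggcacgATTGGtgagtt

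Other genes of ER folding and the unfolded protein response went both ways, with 3 of 23 higher and 5 lower and a median of -0.06. The median was 0.03 with arrays centred on their medians (4 higher, 3 lower) and -0.15 after cyclic loess (2 higher, 8 lower). Herpud1, a factor of ER-associated degradation, measured 9.74, 9.75 and 9.78 in wild type and 10.26, 10.17 and 10.34 in St2-/-. All St2-/- arrays were higher, and it rose by 0.50 (limma adjusted p = 5.69e-04). Atf6, a sensor of ER stress, rose by 0.41 (0.00151), and the disulphide isomerase gene Pdia6 by 0.21 (0.048). Serpinh1, the collagen chaperone, measured 6.87, 6.82 and 7.05 in wild type and 6.31, 6.21 and 6.34 in St2-/-, and fell by 0.63 on the log2 scale (3.63e-04), beside the lower fibroblast markers. Pdia4, another isomerase, fell by 0.36 (0.00196), the degradation ligase gene Syvn1 by 0.33 (0.00985), the stress factor gene Atf4 by 0.24 (0.0218) and the Syvn1 partner gene Sel1l by 0.20 (0.0478). Pdia6 and Sel1l lost their calls whichever 1 array was left out (0.0547 to 0.149, and 0.0584 to 0.126). Atf4 lost its call when wild type replicate 1 (0.0657), St2-/- replicate 2 (0.0797) or St2-/- replicate 3 (0.0584) was left out. Pdia6 was not called after cyclic loess (0.11; 0.252), nor were Atf4 (-0.15; 0.124) and Sel1l (-0.11; 0.258) with arrays centred on their medians. Over all rows, Pdia6 (0.0785) and Sel1l (0.0709) were not called, nor were they with a replicate block (0.0739 and 0.086). With array weights Sel1l was not called (0.0532). Xbp1, the transcription factor of this response, differed by -0.14 and Hyou1, the exchange factor of Hspa5, by -0.03, and neither was called.

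Of the 8 genes with an Hspb symbol, which are grouped by name and not by function, 1 was called. Hspb1, which holds unfolded clients and binds actin, measured 6.01, 6.44 and 5.98 in wild type and 6.80, 6.77 and 6.45 in St2-/-. Wild type replicate 2 and St2-/- replicate 3 nearly met, so the groups barely separated. The means were 6.14 ± 0.26 and 6.67 ± 0.19 (SD, n = 3), a difference of 0.53 ± 0.13 (SE; limma adjusted p = 0.0206). The call was lost when either lower wild type array was left out (replicate 1, 0.0768; replicate 3, 0.0715) and when either higher St2-/- array was (replicate 1, 0.075; replicate 2, 0.0753). Over all rows it was lost too (0.0761). Without wild type replicate 2 the adjusted p was 0.00342. A second Hspb1 probe set gave 0.49. Hspb6, known from muscle, differed by -0.17 (adjusted p = 0.149), and the remaining 6 genes by -0.09 (Hspb7) to 0.0033 (Hspb9). These 6 were dim, with means from 5.17 (Hspb3) to 5.62 (Hspb2), under the array medians of all genes (5.81 to 5.93). Whether they were expressed was not tested. Cryab, a small heat shock gene that the symbol rule leaves out, stood in the muscle list and measured 6.75, 7.07 and 6.54 in wild type and 6.31, 6.17 and 6.23 in St2-/-. Its groups did not overlap, and it fell by 0.55 on the log2 scale (0.00949).

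Besides Dnajb9, 3 J-domain genes were lower. Dnajb4, a cytosolic HSP70 partner, measured 8.10, 8.13 and 7.86 in wild type and 7.53, 7.67 and 7.51 in St2-/-. The groups did not overlap, with means of 8.03 ± 0.15 and 7.57 ± 0.09 (SD, n = 3) and a difference of -0.46 ± 0.09 (SE; limma adjusted p = 0.00464). Dnajc22, a membrane J-domain protein, measured 5.84, 5.75 and 5.65 in wild type and 5.51, 5.45 and 5.17 in St2-/-. No array crossed between the groups, and it fell by 0.37 on the log2 scale (SE 0.10; 0.0233). Dnajc22 was dim, with a mean of 5.56, under the array medians of all genes (5.81 to 5.93), and whether it was expressed was not tested. The Dnajc22 call was lost with arrays centred on their medians (0.0577), after cyclic loess (0.0717) and over all rows (0.0723). It was also lost when wild type replicate 1 (0.0813), wild type replicate 2 (0.0546) or St2-/- replicate 3 (0.0705) was left out.

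Dnajc13, which works in endosome sorting, measured 9.89, 9.71 and 9.73 in wild type and 9.54, 9.46 and 9.52 in St2-/-. All St2-/- values were the lower ones, and it fell by 0.27 (SE 0.07; limma adjusted p = 0.0238). Of its 14 further probe sets 13 gave a negative difference, down to -0.35, and 1 gave 0.02. The mean of all its probe sets was not called (0.118), nor was Dnajc13 with arrays centred on their medians (0.0983), over all rows (0.055) or when wild type replicate 1 (0.073) or any of the St2-/- arrays (0.0517 to 0.0824) was left out.

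**Figure D3:**
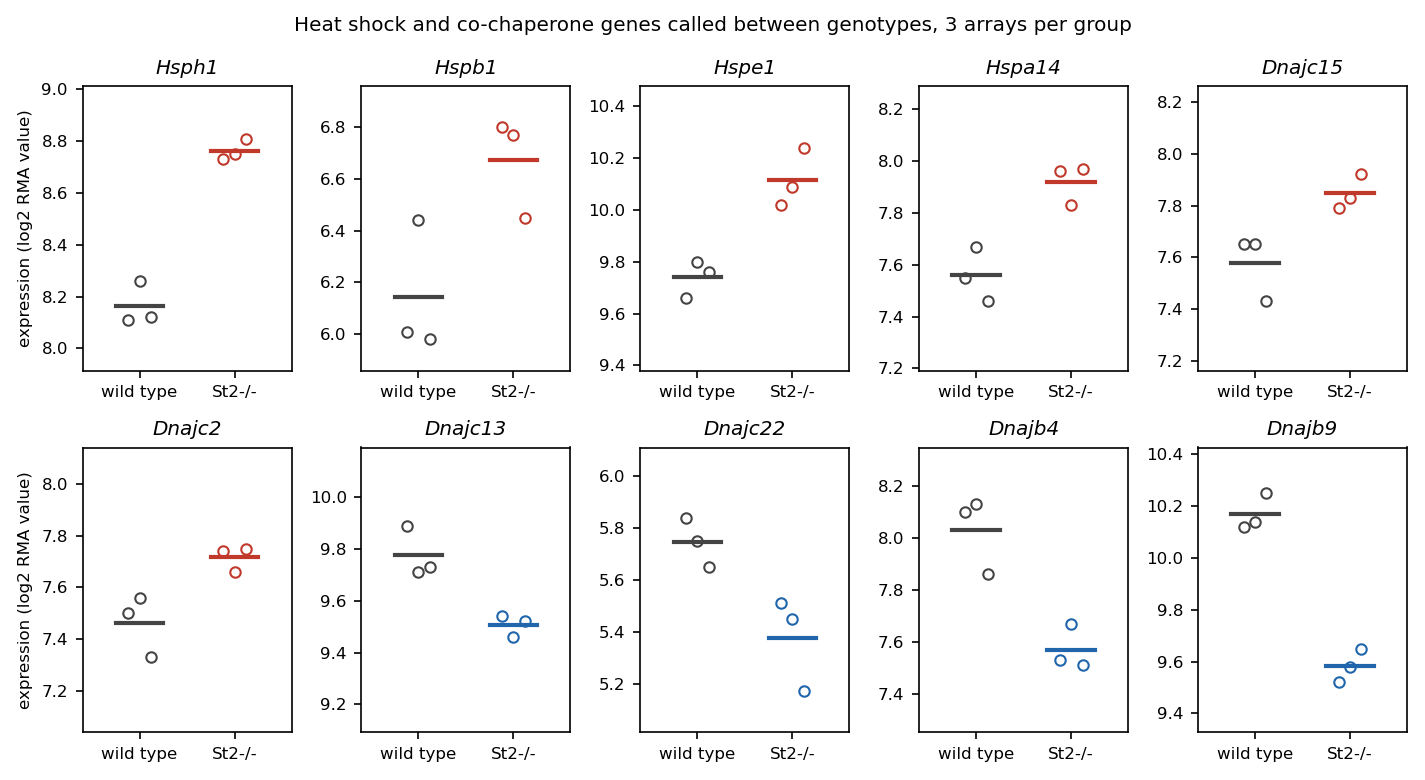
Expression (log2 RMA value, vertical axis) of the 10 called genes on each of the 6 arrays, with wild type in grey and St2-/- in colour and the mean of 3 arrays as a line. Each panel has its own level range of equal height. The groups do not overlap in any of the 10 panels, and they come nearest in Hspb1.

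The remaining J-domain genes were not called. The 11 other Dnajb genes lay between -0.08 (Dnajb13) and 0.23 (Dnajb6), and the 24 other Dnajc genes between -0.19 (Dnajc10) and 0.27 (Dnajc21). Dnajc21, a factor of ribosome assembly, measured 7.60, 7.64 and 7.32 in wild type and 7.90, 7.65 and 7.81 in St2-/-. Its groups did not overlap by a narrow margin, and its adjusted p was 0.092. The probe set of Dnajb6 alone gave 0.23 (limma adjusted p = 0.238) with overlapping groups. It was dim, with a mean of 5.64, under the array medians of all genes (5.81 to 5.93). Brighter probe sets that Dnajb6 shares with another symbol are described at the end.

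The calls differed in how firmly they held over 15 other settings of the analysis. Hsph1, Hspe1, Hspa14, Dnajb4 and Dnajb9 were called in all 15. The other 5 of the 10 called genes were not called in at least 1, and 18 genes without a call were called in at least 1. With each array centred on its own median, 16 chaperone genes were higher and 2 lower, and over all genes 3686 were higher and 1294 lower, where the main setting had 2142 and 1998. Of the Dnajc genes, 10 of 28 were higher in that setting and 0 after cyclic loess. Besides Dnajc2, Dnajc15 and Dnajc21, the genes higher with centring were Dnajc4 (0.28), Dnajc8 (0.28), Dnajc14 (0.27), Dnajc18 (0.26), Dnajc5 (0.25), Dnajc7 (0.22) and Dnajc16 (0.20). In the main setting these 7 differed by 0.19, 0.19, 0.18, 0.17, 0.16, 0.13 and 0.11 and were not called. Dnajc5 is known from synaptic vesicles, and Dnajc7 links HSP70 and HSP90. Centring moved the median difference of all genes from -0.02 to 0.07.

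**Figure D4:**
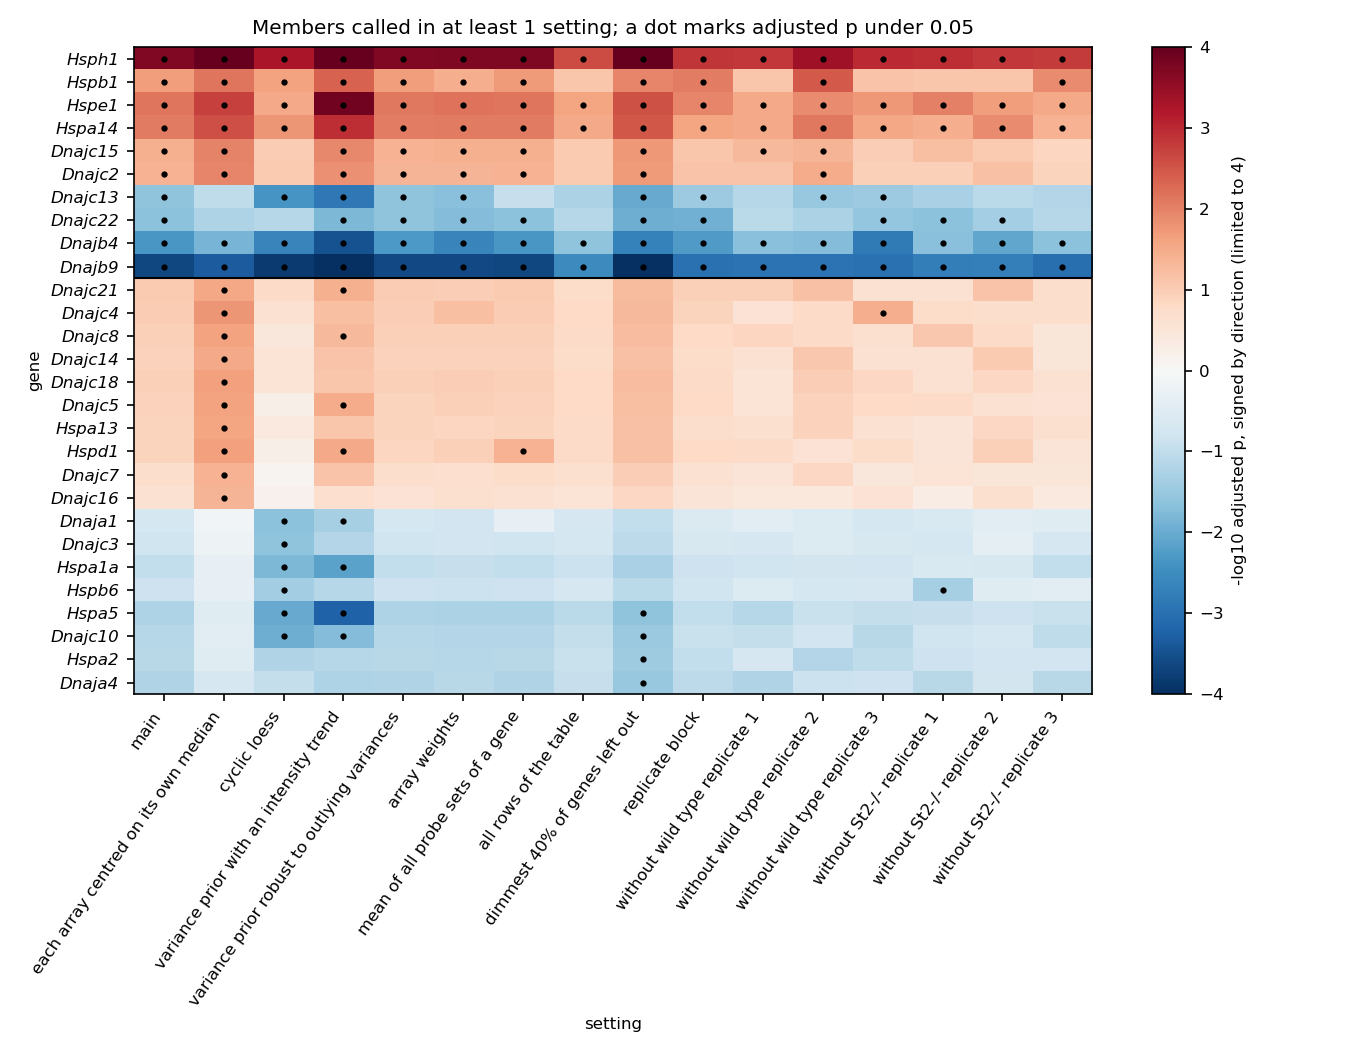
Adjusted p as -log10, signed by direction and limited to 4, for the 28 genes called in at least 1 setting (vertical axis) under the main setting and 15 alternatives (horizontal axis). Black dots mark adjusted p under 0.05. The rows of Hsph1, Hspe1, Hspa14, Dnajb4 and Dnajb9 carry a dot in every column, and the genes under the line carry none in the main setting.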

How the data were processed

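Expression was deposited by the authors as log2 values, for which the submitters' processing notes name RMA. No version or probe annotation is named in the labels, and the base of the logarithm is taken as that of RMA. Among 35556 probe sets, those with 1 gene symbol were kept, and each gene was read from its brightest probe set by the mean of the 6 arrays. The genotypes were compared with limma (version 3.58.1, R version 4.3.3), using lmFit and eBayes, two-sided, and p was adjusted by Benjamini-Hochberg over 19938 genes, with no filter on dim genes. The number of arrays, 3 a group, limits the precision. The fit was run on simulated data with 200 changed genes, where 4140 were called in these data. That run checked the code and does not bear on the calls reported here. All 70 symbols matched the RefSeq table of GRCm38.p6, whose promoter entries were searched for motifs. The 2-unit heat shock element and the ER element were added after the data were seen.

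Named are all called genes, the brightest and the 2 of smallest p in each family, genes whose probe sets or settings differ, and the 3 called genes of smallest p in each pathway list. Cell type marker lists are given as counts and levels. A few others are named for their role, after their values were seen. The genes, lists and compartments were chosen with earlier results of these data known. Alternatives were 2 scalings, 2 variance priors, array weights, the mean of probe sets, all rows, a filter on dim genes, a replicate block and each array left out.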

Additional observations from a re-analysis of the deposited data

How the results depend on the processing

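The 70 genes had 6 called higher and 4 lower. These counts became 16 and 2 with each array centred on its own median, 4 and 9 after cyclic loess, 10 and 8 with an intensity trend in the variance prior, 3 and 2 over all rows of the table, and 6 and 8 without the dimmest 40% of genes. A robust prior and array weights gave 6 and 4, and the mean of probe sets 7 and 3. With 1 array left out, 3 to 6 were higher and 2 to 4 lower, and 2887 to 3852 of all genes were called, where the full set gave 4140. The share of chaperone genes called was 18.6% after cyclic loess, against 18.5% of all genes. It was 25.7% with the intensity trend, against 24.4%. With centring it was 25.7%, again not below that of all genes. In every other alternative the chaperone share was the lower, as in the main setting. The causes of these changes were not tested. Leaving out an array or adding rows changed the variance prior and the adjustment of p together. No call reversed in the 15 alternatives. Differences changed sign in 34 genes, 0 of them called in either setting, and 0.09 was the largest of these in the main setting. The labels number the replicates alike in both groups, but deviations of same-numbered arrays correlated at 0.01, -0.01 and -0.05, so the numbers were not taken as pairs. With the replicate block 4 chaperone genes were higher and 4 lower, and 3571 of all genes were called. Depth does not apply to arrays, and signal over background was not given.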

Other observations

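Probe sets that chaperone genes share with other symbols entered no count above. For Dnajb6, a suppressor of protein aggregation, 4 probe sets shared with Gm4247 gave differences of 0.18 to 0.20. Their groups did not overlap, and they had limma adjusted p of 0.0777 to 0.13 over all rows of the table. Their means were 9.05 to 9.87 in wild type and 9.23 to 10.05 in St2-/-, where the probe set of Dnajb6 alone had a mean of 5.64. A probe set shared by Dnaja1 and Mir207 measured 9.07, 8.99 and 9.26 in wild type and 8.85, 8.81 and 8.72 in St2-/-. Its difference of -0.31 had an adjusted p of 0.0647, where the 2 probe sets of Dnaja1 alone gave -0.12 and -0.02. Of Hspa8, the main probe set and 2 further ones gave -0.08, -0.12 and -0.11, while 2 probe sets shared with the small nucleolar RNA genes Snord14c and Snord14d, which lie in its introns, gave 0.08 and 0.09. None of the 10 shared probe sets was called in the limma fit over all rows, and 5 of them, the 4 of Dnajb6 and that of Dnaja1, had an unadjusted p under 0.05.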
